A study of Saccharomyces cerevisiae with 18 samples.

Results

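The comparison described here is between the phosphomimic allele of YRR1 and the S96 allele it was made from, both in rich glucose medium (YPD). The host was S96 yeast, a MATa lys5 strain related to the S288c reference, in which YRR1 had been replaced by a hygromycin resistance marker. Yrr1IE cells carried on a plasmid selected with G418 the S96 allele with glutamate in place of isoleucine at residue 775 (I775E), and Yrr1S cells carried the unchanged S96 allele on the same kind of plasmid, each with the promoter and terminator of YRR1. The members are the 4 libraries named for these 2 conditions, S5 and S6 for Yrr1IE and S3 and S4 for Yrr1S, out of 18 RNA-Seq libraries that also cover the YJM789 allele (Yrr1Y), YPD with 0.25 µg/ml of the mutagen 4NQO (4-nitroquinoline 1-oxide), and glycerol. Each allele was grown as a pair of cultures, and every YPD culture was split into a part with 4NQO and a part without it. These parts grew for a further 2.5 h, whereas the glycerol cultures were washed first and grown for longer. Which libraries came from the same culture, and whether cultures were separate transformants, is not labelled. The p-values therefore measure only the spread between libraries of a condition, pooled over all 18 libraries, and this spread may be technical.

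Yrr1 is a zinc cluster transcription factor that activates genes of multidrug resistance, among them the transporter genes SNQ2 and YOR1. The genes that differed most here belong to other pathways. Sulfate assimilation takes up sulfate, reduces it to sulfide and builds it into homocysteine, under the activator Met4 and its DNA-binding partners Cbf1, Met31 and Met32. De novo purine synthesis builds IMP in a chain of ADE enzymes that use folate-bound carbon units, and in yeast the activators Bas1 and Pho2 control both the ADE genes and several genes of folate metabolism. Chaperones of the Hsp70, Hsp90, Hsp104 and small heat shock classes hold and refold proteins and are activated by Hsf1 and, in part, by Msn2 and Msn4.

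Total counts in genes were 2294807 and 2711267 in the Yrr1IE libraries, against 2062445 and 2826771 in the Yrr1S libraries. Levels are given as CPM, the counts of a library scaled to a common total with TMM factors, in the order S5 and S6 for Yrr1IE, then S3 and S4 for Yrr1S. Fold changes are Yrr1IE over Yrr1S on the log2 scale with a standard error (SE) and come from edgeR's quasi-likelihood test over all 18 libraries. A gene was called at a Benjamini-Hochberg adjusted p under 0.05. Of 5766 genes tested, 420 were higher in Yrr1IE (7.28%) and 254 were lower (4.41%), 674 in all (11.7%), and the median over all genes was -0.017. Lists below with called shares near these, such as respiratory, proteasome, DNA damage, translation factor and purine salvage genes, are not set apart from all genes by their counts. Sterol and hypoxic genes were called higher in 8.82% and lower in 14.7%, glycolysis in 32.1% and 7.14%, phosphate genes in 25% and 8.33%. Vitamin genes were at 24.1% and 6.90%, trehalose and glycogen at 14.3% and 14.3%, hexose transporters and sensors at 0% and 16.7%. Among called genes, 221 were higher by more than 1 log2 unit and 42 were lower by more than 1 log2 unit. Leaving out library S4 left 411 called genes and leaving out S5 left 375.

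**Figure D1:**
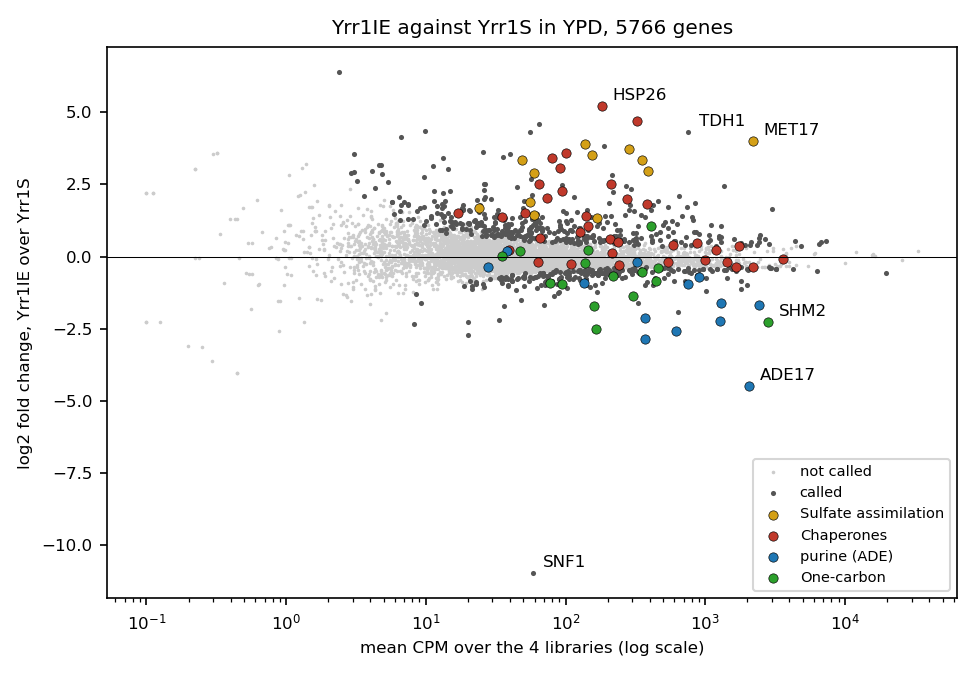
Log2 fold change of Yrr1IE over Yrr1S in YPD (vertical axis) against mean CPM over the 4 libraries (horizontal axis, log scale) for 5766 genes, each a point. Sulfate assimilation genes and the leading chaperones lie above 0, purine (ADE) and folate genes (legend: one-carbon) lie mostly below 0, and SNF1 lies alone at -10.97. SNF1 had 0 counts in both Yrr1IE libraries, so its value is not a measured size, and the limit is at least 180-fold.

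The YRR1 transcript itself was less abundant from the Yrr1IE plasmid. It gave 41.4 and 49.9 CPM (93 and 126 counts) in Yrr1IE, against 117 and 122 CPM (235 and 308 counts) in Yrr1S, and the groups did not overlap. The fold change was -1.38 (SE 0.18, edgeR adjusted p = 1.05e-06). It was -1.24 in 4NQO (adjusted p = 1.78e-05) and -0.998 in glycerol (adjusted p = 9.78e-06). In Yrr1Y cells in YPD it had 80.0 and 96.7 CPM. Of the tested loci around YRR1, PNS1 (-0.92, edgeR adjusted p = 0.00534), DDP1 (-0.64, adjusted p = 0.0444) and GET4 (-0.50, adjusted p = 0.0367) were also lower in YPD. MTR10 (-0.04), SEY1 (-0.43), SWT1 (0.26) and RPS28A (-0.25) were not called. In glycerol PNS1 was higher (0.54, adjusted p = 0.00631). The cause of these differences was not tested.

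SNF1, which encodes the catalytic subunit of the yeast AMP-activated kinase needed to relieve glucose repression, was not detected in the Yrr1IE libraries. It had 0 and 0 counts in Yrr1IE, against 231 and 297 counts in Yrr1S. Taking 3 counts over both Yrr1IE libraries as the most that these zeros allow, SNF1 was at least 180-fold lower in Yrr1IE. The same gap held in the other media: the 6 Yrr1IE libraries held 3 SNF1 counts in all and 4 of them held 0, whereas each of the 12 others held 179 to 297. Of all 6713 loci in the count table, SNF1 was the single locus at which every Yrr1IE library lay more than 5-fold below every other library, and 0 loci showed the opposite pattern.

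The labels name no change at SNF1. The loci around it were transcribed. YDR476C, its neighbour on the left, had 139 and 225 counts in Yrr1IE, against 209 and 275 counts in Yrr1S (-0.49, SE 0.19, edgeR adjusted p = 0.0856). In 4NQO YDR476C was called lower (-1.05, adjusted p = 0.000763), and in glycerol it was at -0.16 (adjusted p = 0.47). SNM1, an essential RNase MRP subunit gene that starts just past the end of SNF1 on the same strand, had 39 and 65 counts in Yrr1IE, against 15 and 28 counts in Yrr1S (1.20, SE 0.39, adjusted p = 0.0437). Farther out, PHO8 was higher in YPD (0.38, edgeR adjusted p = 0.047), while RPL27B, TRS31, PRP3, JIP4, PEX29, DIG2 and CWC21 were not called. In glycerol, where 48.3% of all genes were called, PHO8 (0.90), JIP4 (0.88), PEX29 (1.09) and DIG2 (0.94) were higher and RPL27B (-1.41) was lower. Medians over the genes of the 16 nuclear chromosomes ran from -0.07 to 0.03 in YPD, close to the median of all genes. Since the Yrr1IE change and the missing SNF1 transcript go together in every Yrr1IE library, their parts in the differences below cannot be told apart.

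**Figure D2:**
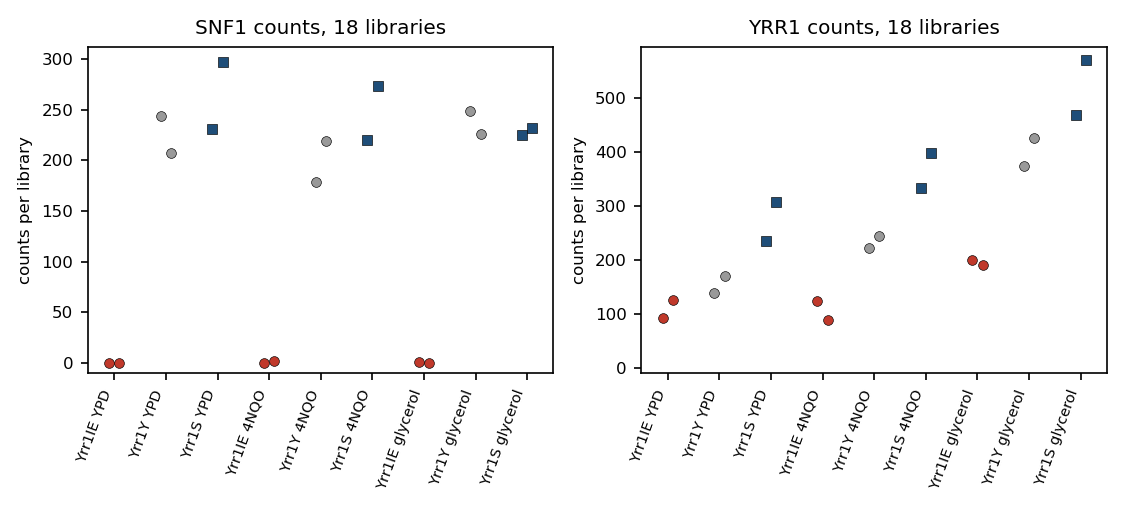
Counts of SNF1 (left) and YRR1 (right) in each of the 18 libraries, by allele and medium (2 points per condition; Yrr1IE red, Yrr1Y grey, Yrr1S blue squares). SNF1 lies at 0 to 2 counts in every Yrr1IE library and at 179 or more elsewhere, and YRR1 is lowest in Yrr1IE within each medium.

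Of 12 listed targets of Yrr1, 2 were higher (16.7%, against 7.28% of all genes) and 1 was lower, with a median of 0.21. YLR179C, a target of unknown function, had 890 and 846 CPM in Yrr1IE, against 391.6 and 395 CPM in Yrr1S (1.14, SE 0.12, edgeR adjusted p = 1.55e-08). YPL088W, which encodes a putative aryl alcohol dehydrogenase, had 53.5 and 42.4 CPM in Yrr1IE, against 14.5 and 19.4 CPM in Yrr1S (1.48, SE 0.25, adjusted p = 7.85e-05). The call of YMR102C (-0.79) was lost when any 1 of the 4 libraries was left out. SNQ2, the drug pump of the list, had 348 and 388 CPM in Yrr1IE, against 316 and 309 CPM in Yrr1S (0.24, SE 0.14, adjusted p = 0.313), and YOR1 had 144 and 160 CPM, against 154 and 145 CPM (0.02). Of 18 further genes of pleiotropic drug resistance, 1 was higher (5.56%), the polyamine transporter gene TPO4 (1.42). This count was 3 when only the 4 libraries compared were fitted.

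All 12 genes of sulfate assimilation were higher in Yrr1IE, by 1.35 to 4.00 log2 units with a median of 3.14, and all 12 stayed called under every alternative run. Summed over the list, these genes held 6883 and 7486 CPM in Yrr1IE, against 705 and 653 CPM in Yrr1S. In uptake, SUL2, a high-affinity sulfate permease, had 276 and 289 CPM in Yrr1IE, against 23.9 and 25.7 CPM in Yrr1S (3.50, SE 0.19, edgeR adjusted p = 1.37e-14). The companion permease SUL1 was higher by 1.42. In the activation steps, MET3 (ATP sulfurylase) had 524 and 535 CPM in Yrr1IE, against 40.9 and 39.1 CPM in Yrr1S (3.73, SE 0.16). MET14 (APS kinase) had 267 and 248 CPM in Yrr1IE, against 19.9 and 15.01 CPM in Yrr1S (3.89, SE 0.23).

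Reduction and incorporation followed the same direction. MET16 (PAPS reductase) was higher by 3.33, and MET10 and MET5, the subunits of sulfite reductase, by 3.36 and 2.95. MET1 (2.89) and MET8 (1.70) make siroheme, the cofactor of that reductase, and MET22 (1.35) removes the by-product PAP. MET17 (O-acetylhomoserine sulfhydrylase), which joins sulfide to a carbon chain, had 3869 and 4406 CPM in Yrr1IE, against 265 and 254 CPM in Yrr1S. Its fold change was 4.00 (SE 0.15, edgeR adjusted p = 6.57e-18). MET2, which makes the carbon acceptor, was higher by 1.90.

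Downstream of sulfide, 16 of 29 genes of the methionine cycle and of uptake were higher and 1 was lower (median 0.61). STR3, a cystathionine beta-lyase that converts cystathionine to homocysteine, had 131 and 118 CPM in Yrr1IE, against 5.48 and 4.74 CPM in Yrr1S (4.602, SE 0.37, edgeR adjusted p = 5.74e-11). MET6, methionine synthase, had 2078 and 2535 CPM in Yrr1IE, against 404 and 447 CPM in Yrr1S (2.44, SE 0.14). The permease genes SEO1 (3.63), MMP1 (2.07), MUP1 (1.87) and SAM3 (1.77) were higher too, as was MHT1 (2.53), which makes methionine from S-methylmethionine. Genes at the end of the cycle differed less, SAM2 by 0.80 and SAM1 by 0.49, and the call of SAM1 was lost without S3, S4 or S6. The lower gene was MET12 (-0.71), an isozyme of methylenetetrahydrofolate reductase, whose call was lost without S6. Without S6 the list had 13 higher and 0 lower. ICY2 (also ATG41), which is listed with the autophagy genes, had 343 and 365 CPM in Yrr1IE, against 26.9 and 23.3 CPM in Yrr1S (3.82, SE 0.19).

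The transcripts of the regulators did not pass the test. Of the 5 measured members of the Met4 group, 0 were called by edgeR or by DESeq2 and 2 had an unadjusted p under 0.05. Among them MET32 was at 0.84 (edgeR adjusted p = 0.0801), CBF1 at 0.31, MET31 at -0.14 and MET4 at -0.20. The median of the 5 was 0.31, with 3 above 0 and 2 below. Without S3, 1 of them was called, and so was 1 with the filter at 20 CPM.

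**Figure D3:**
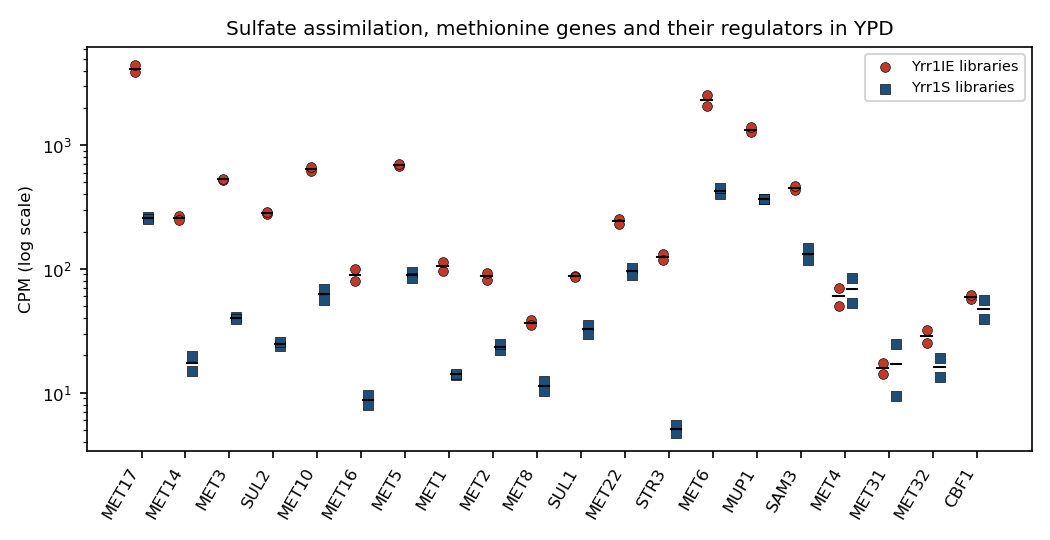
CPM (log scale) in each YPD library for the 12 sulfate assimilation genes, 4 genes of methionine synthesis and uptake, and 4 regulators (Yrr1IE red circles, Yrr1S blue squares, black bars the means of 2 libraries). For the first 16 genes the Yrr1IE points lie above the Yrr1S points with no overlap, while MET4 and MET31 overlap.

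The letters CACGTG are the palindromic site bound by Cbf1. Promoters were taken as the 250 bases before to 50 after the start codon. CACGTG was found in 5 of the 12 sulfate assimilation promoters (41.7%), against 2.93% of the promoters of all genes tested. Among all called genes it was in 3.61% of promoters of those higher and 3.97% of those lower. The lists were written from knowledge of yeast pathways, and a link of motifs to the allele difference was not tested. The exact Met31 and Met32 letters AACTGTGG were in 0 of the 12 and in 5 of 29 promoters of the methionine list (17.2%), against 0.839% of all promoters. Shorter or variant forms of that site, and sites farther upstream, were not searched, so the 0 does not show that such sites are lacking. Stretches that hold the Cbf1 letters are shown here for 4 of the genes, from 250 to 151 bases before the start codon in the R64 build (RefSeq), 5′ to 3′ along the gene's strand, with the letters CACGTG in capitals. MET10 holds 2 copies.
MET14, chrXI:439536-439635, - strand: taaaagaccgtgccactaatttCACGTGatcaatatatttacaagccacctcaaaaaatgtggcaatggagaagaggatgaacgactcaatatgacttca
MET16, chrXVI:877783-877882, - strand: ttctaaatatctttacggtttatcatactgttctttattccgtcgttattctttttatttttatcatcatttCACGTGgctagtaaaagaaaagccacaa
MET10, chrVI:213062-213161, + strand: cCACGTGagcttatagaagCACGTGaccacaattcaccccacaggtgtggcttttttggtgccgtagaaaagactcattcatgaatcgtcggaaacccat
MET8, chrII:650118-650217, + strand: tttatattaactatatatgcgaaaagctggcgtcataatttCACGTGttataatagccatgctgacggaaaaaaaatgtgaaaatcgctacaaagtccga
A match describes the sequence and is not evidence of binding. MET17 and MET3, which differed as much, had none of the searched letters in this window. The letters CGGAANT, the core of the Yrr1 motif, were in 3 of 12 promoters of the listed Yrr1 targets (25%). They were in 6.97% of promoters of all genes called higher and 11.5% of those called lower, against 8.87% of all promoters.

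Purine synthesis moved the other way. Of 13 genes of the pathway and its activators, 10 were lower in Yrr1IE and 0 were higher, with a median of -1.62, and all 10 stayed lower under every alternative run. Summed over the list, the genes held 4600 and 4377 CPM in Yrr1IE, against 14741 and 18742 CPM in Yrr1S. The lowest fold change of the list was in ADE17, which encodes an isozyme for the last 2 steps to IMP. It had 194 and 160 CPM in Yrr1IE, against 3386 and 4508 CPM in Yrr1S (-4.48, SE 0.18, edgeR adjusted p = 8.89e-18), a 22.3-fold lower level. Its paralogue ADE16 had 311 and 295 CPM in Yrr1IE, against 341 and 343 CPM in Yrr1S (-0.17, SE 0.13, adjusted p = 0.466). In FPKM, which allows levels of different genes to be set side by side, ADE17 and ADE16 averaged 95.4 and 163 in Yrr1IE, against 2060 and 180 in Yrr1S, so the isozyme with the higher level was ADE16 in Yrr1IE and ADE17 in Yrr1S.

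The other 9 called genes of the list were lower by smaller amounts. ADE4, the first enzyme of the pathway, had 151 and 128 CPM in Yrr1IE, against 513 and 701 CPM in Yrr1S (-2.12, SE 0.16). ADE2 (AIR carboxylase) had 103 and 74.8 CPM in Yrr1IE, against 581 and 717 CPM in Yrr1S (-2.87, SE 0.18), and ADE1 (SAICAR synthetase) was at -2.57. ADE13 (adenylosuccinate lyase) was at -2.23, ADE5,7 at -1.68, ADE6 at -1.62, ADE12 at -0.94, ADE8 at -0.93 and ADE3 at -0.72. In these genes both Yrr1IE libraries lay below both Yrr1S libraries, as groups did not overlap in any of the 674 called genes nor in 55.4% of all genes tested. The activators BAS1 (0.18) and PHO2 (-0.35) were not called.

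Among genes of folate and serine metabolism, which supply carbon units to purines, 15 were tested: 10 were lower and 1 was higher (median -0.67), and without S6 or without S4 the lower count was 6. SHM2, the cytosolic serine hydroxymethyltransferase, had 988 and 946 CPM in Yrr1IE, against 3752 and 5638 CPM in Yrr1S (-2.28, SE 0.15, edgeR adjusted p = 8.11e-13). The mitochondrial isozyme gene SHM1 was at -0.41, a call lost when any 1 of the 4 libraries was left out. MTD1, a methylenetetrahydrofolate dehydrogenase, had 60.2 and 39.6 CPM in Yrr1IE, against 218 and 339 CPM in Yrr1S (-2.49, SE 0.20). The glycine cleavage genes GCV1 (-1.71), GCV2 (-1.37) and GCV3 (-0.67) were lower, GCV3 not without S4 or S6. The gene called higher was SER33 (1.07), a phosphoglycerate dehydrogenase of serine synthesis, whereas its isozyme SER3 was lower (-0.93), a call lost without S6. Among 19 genes of GMP synthesis and purine salvage, 2 were higher and 2 were lower, and 1 was higher without S3, S4 or S6. IMD2, an IMP dehydrogenase and so the start of the GMP branch, had 1078 and 1040 CPM in Yrr1IE, against 259 and 233 CPM in Yrr1S (2.11, SE 0.15). The purine permease FCY2 (-0.74) and the salvage enzyme HPT1 (-0.99) were lower.

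**Figure D4:**
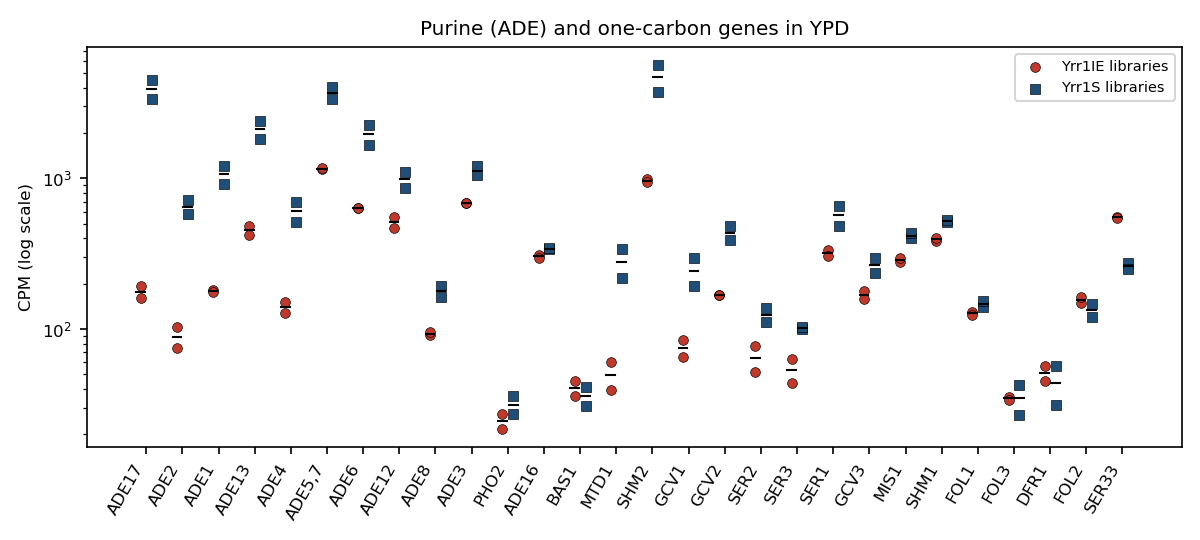
CPM (log scale) in each YPD library for the 13 ADE and activator genes, left, and the 15 folate and serine genes, right (Yrr1IE red circles, Yrr1S blue squares, black bars the means of 2 libraries). The Yrr1IE points lie below the Yrr1S points by the widest margin in ADE17, whereas ADE16, BAS1, PHO2 and the FOL genes are close together and SER33 is reversed.

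The hexamer TGACTC, bound by Bas1 and also by the amino acid regulator Gcn4, was present on either strand in 8 of the 13 ADE promoters (61.5%) and 10 of the 15 folate and serine promoters (66.7%), against 8.24% of all promoters. It was also in 12 of 24 promoters of arginine and lysine genes (50%), a list that was higher in Yrr1IE. Among all called genes it was in 15.1% of promoters of those higher and 12.3% of those lower. The stretches of 6 called genes that hold it, ADE17 with the lowest fold change among them, run from 250 to 131 bases before the start codon, with TGACTC or its reverse complement in capitals.
ADE17, chrXIII:509411-509530, - strand: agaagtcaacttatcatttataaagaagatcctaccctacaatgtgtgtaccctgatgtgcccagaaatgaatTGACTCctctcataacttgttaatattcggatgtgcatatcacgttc
ADE2, chrXV:566322-566441, - strand: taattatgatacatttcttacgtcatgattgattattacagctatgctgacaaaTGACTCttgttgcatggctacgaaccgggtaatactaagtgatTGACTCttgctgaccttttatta
ADE1, chrI:169125-169244, + strand: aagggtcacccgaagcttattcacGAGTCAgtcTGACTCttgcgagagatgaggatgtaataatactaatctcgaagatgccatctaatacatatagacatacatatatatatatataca
MTD1, chrXI:590145-590264, + strand: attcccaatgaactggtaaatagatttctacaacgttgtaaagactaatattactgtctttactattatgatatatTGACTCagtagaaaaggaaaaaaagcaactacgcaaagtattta
SHM2, chrXII:259532-259651, - strand: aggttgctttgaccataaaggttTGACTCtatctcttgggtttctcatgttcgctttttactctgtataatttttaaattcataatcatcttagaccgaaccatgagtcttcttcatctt
GCV1, chrIV:485496-485615, - strand: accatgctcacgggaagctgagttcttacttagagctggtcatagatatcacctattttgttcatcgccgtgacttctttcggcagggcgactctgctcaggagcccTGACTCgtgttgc
ADE1 and ADE2 hold 2 copies each, and the ADE4 window held none.

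Chaperone genes were higher in Yrr1IE: 21 of 35 were called higher and 0 lower, with a median of 0.66, and without S3 these counts were 16 and 1. HSP26, a small heat shock protein, had 377 and 336 CPM in Yrr1IE, against 11.96 and 7.51 CPM in Yrr1S. Its fold change of 5.22 (SE 0.28, edgeR adjusted p = 9.30e-15) was the highest of any called gene that averaged 20 CPM or more. SSA4, an inducible cytosolic Hsp70, had 613 and 645 CPM in Yrr1IE, against 29.9 and 19.4 CPM in Yrr1S (4.70, SE 0.21). The small heat shock gene HSP42 (3.59), the aggregate sorting factor BTN2 (3.42), the mitochondrial disaggregase HSP78 (3.07), and HSP104 (2.003), the cytosolic one, were higher as well. BTN2 had 133 and 162 CPM in Yrr1IE, against 8.97 and 17.8 CPM in Yrr1S, and was at 4.04 without S4.

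For Hsp90 and cytosolic Hsp70, stress-inducible copies were called and constitutive partners did not pass the edgeR test. These pairs were chosen after their values were seen. DESeq2 called 22 of the 35 chaperone genes higher and 1 lower. HSP82 had 373 and 352 CPM in Yrr1IE, against 55.3 and 71.1 CPM in Yrr1S (2.51, SE 0.20), whereas its near-identical partner HSC82 had 1301 and 1402 CPM, against 1400 and 1657 CPM (-0.18, SE 0.13, edgeR adjusted p = 0.427). Likewise SSA1 (1.83) and SSA3 (2.25) were higher, and SSA2 was at -0.36 (adjusted p = 0.0542). Reads of such copies may be shared between them, so the split between partners is uncertain. HSF1, the activator of these genes, was at 0.24 (adjusted p = 0.572).

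Heat shock elements in the form GAANNTTC or TTCNNGAA, which overlap where units repeat, were found in 20 of the 35 chaperone promoters (57.1%), against 22.8% of all promoters. Among all called genes they were in 23.8% of promoters of those higher and 20.2% of those lower. HSP42 and HSP78 are shown because each carries a run of adjoining units, given in capitals, between 250 and 121 bases before the start codon.
HSP42, chrIV:806371-806500, + strand: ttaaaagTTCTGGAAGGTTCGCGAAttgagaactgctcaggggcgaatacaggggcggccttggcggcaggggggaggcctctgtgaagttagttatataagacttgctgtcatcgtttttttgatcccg
HSP78, chrIV:974364-974493, - strand: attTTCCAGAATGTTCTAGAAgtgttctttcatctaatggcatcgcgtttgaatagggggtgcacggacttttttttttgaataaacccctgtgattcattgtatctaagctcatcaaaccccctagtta
HSP26 had no match to the searched letters in its window.

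General stress genes were also higher, 15 of 32 against 1 lower, with a median of 0.71. HSP12, a membrane-associated stress protein, had 98.9 and 113 CPM in Yrr1IE, against 3.49 and 6.72 CPM in Yrr1S (4.31, SE 0.39, edgeR adjusted p = 8.26e-10), and its fold change was 4.91 without S4. DDR2, a multistress gene, had 61.5 and 70.5 CPM in Yrr1IE, against 5.48 and 6.32 CPM in Yrr1S (3.46, SE 0.31). SPI1 (2.68), the secreted YGP1 (1.73) and the polyubiquitin gene UBI4 (1.63) were higher. GPD1, glycerol-3-phosphate dehydrogenase of the osmotic response, had 99.8 and 95.4 CPM in Yrr1IE, against 207 and 200 CPM in Yrr1S (-1.06, SE 0.13). The stress response element letters AGGGG were in 19 of 32 promoters of the list (59.4%), against 21.8% of all promoters. Among all called genes they were in 30.3% of promoters of those higher and 21.0% of those lower. The activator genes MSN2 (-0.41) and MSN4 (-0.35) were not called.

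Of 38 antioxidant genes 12 were higher and 1 was lower, and 7 were higher without S5. The glutaredoxin gene GRX8 (2.53), the glutathione peroxidase gene GPX2 (1.67) and the thioredoxin peroxidase gene AHP1 (1.27) led them, with GRX8 at 3.18 without S4. In trehalose and glycogen metabolism 3 of 21 were higher and 3 were lower, and the higher count was 0 without S5 and 1 without S4, the lower count 2 without S4 or S5 and 1 without S3. GSY1, a glycogen synthase, had 12.9 and 11.1 CPM in Yrr1IE, against 59.8 and 50.6 CPM in Yrr1S (-2.19, SE 0.25, edgeR adjusted p = 8.01e-08).

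Of 13 further genes of the Snf1 complex and its regulators, 0 were called by edgeR or by DESeq2 (1 without S4), 2 had an unadjusted p under 0.05, and the regulatory subunit gene SNF4 was at -0.27. Among 19 transcription factors of glucose repression, 2 were higher and 3 were lower, or 2 higher and 1 lower without S4. HAP4, the limiting subunit of the activator of respiratory genes, had 37.0 and 30.5 CPM in Yrr1IE, against 125 and 90.1 CPM in Yrr1S (-1.67, SE 0.20, edgeR adjusted p = 2.96e-07). CAT8, an activator of gluconeogenic genes that acts after Snf1, was at -1.06, and this call was lost without S4. SIP4, which is activated in part through Cat8, had 13.4 and 24.6 CPM in Yrr1IE, against 2.99 and 4.74 CPM in Yrr1S (2.26, SE 0.39). The repressor gene NRG1 was higher by 1.38.

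Of 43 glucose-repressed genes, 7 were higher and 3 lower, but the balance rested on single libraries: 2 were higher and 4 lower without S3, 2 and 2 without S4, and 3 and 3 without S5. DESeq2 called 4 higher and 3 lower. PCK1, phosphoenolpyruvate carboxykinase, had 9.80 and 13.5 CPM in Yrr1IE, against 2.49 and 3.95 CPM in Yrr1S (1.81, SE 0.36). Among 18 hexose transporters and sensors, 0 were higher and 3 were lower, and 1 was higher without S4. HXT2, a glucose transporter expressed at low glucose, had 251 and 285 CPM in Yrr1IE, against 1136 and 878 CPM in Yrr1S (-1.91, SE 0.24, adjusted p = 7.39e-07). HXT4 had 162 and 164 CPM in Yrr1IE, against 693 and 313 CPM in Yrr1S (-1.62, SE 0.26), and was at -0.95 without S3. HXT7 (-2.25) was at -1.44 without S3, and its reads may be shared with its near-identical neighbour HXT6.

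In glycolysis 9 of 28 genes were higher and 2 were lower, with 5 higher and 0 lower without S5 and 7 higher and 1 lower without S4. TDH1, the minor glyceraldehyde-3-phosphate dehydrogenase, had 1738 and 1140 CPM in Yrr1IE, against 81.2 and 63.2 CPM in Yrr1S (4.32, SE 0.18, edgeR adjusted p = 3.23e-17). The major isozyme gene TDH3 was at 0.19 (adjusted p = 0.366). Chosen after its values were seen, ENO1 was higher by 1.65, and its partner ENO2 was at -0.12 (adjusted p = 0.613). ADH5, an alcohol dehydrogenase, had 374 and 344 CPM in Yrr1IE, against 69.3 and 83.8 CPM in Yrr1S (2.22, SE 0.16). Among 54 respiratory genes, 2 were higher (3.70%, against 7.28% of all genes) and 4 lower (7.41%, against 4.41%). ACO1 (-0.85) and NDE1 (-0.94) were among those lower. Without S4 the lower count was 7, it was 2 without S3 or S6, and 1 was higher without S5.

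In the arginine and lysine pathways 14 of 24 genes were higher and 0 lower, with a median of 0.82. ARG3, ornithine carbamoyltransferase, had 76.2 and 71.3 CPM in Yrr1IE, against 7.47 and 5.14 CPM in Yrr1S (3.56, SE 0.33, edgeR adjusted p = 1.38e-09). CPA1 (1.79), which acts in carbamoyl phosphate synthesis, ARG4 (1.62), argininosuccinate lyase, and ARG1 (1.43), argininosuccinate synthetase, were also higher. Of 42 other amino acid genes, 10 were higher and 3 were lower. HOM3 (1.42) and HOM2 (1.10), which open the pathway to homoserine, and LEU4 (1.38) were among those higher, and GDH1 (-0.89) and GLN1 (-0.64), which assimilate ammonium, were lower, GLN1 not without S4. GCN4 itself was at 0.29 (adjusted p = 0.135).

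Of 29 genes of vitamin synthesis and uptake, 7 were higher and 2 were lower, led by the thiamine transporter gene THI7 (1.99), and the counts were 5 higher and 0 lower without S4 and 5 higher and 1 lower without S5. Among 24 phosphate genes, 6 were higher and 2 lower, and the counts were 3 higher and 2 lower without S3 and 3 higher and 1 lower without S4. PHO89, a sodium-coupled phosphate transporter, had 33.0 and 59.4 CPM in Yrr1IE, against 264 and 281 CPM in Yrr1S (-2.55, SE 0.20, edgeR adjusted p = 4.88e-11). The secreted phosphatase PHO5 was higher by 1.06. Of 29 iron genes 11 were higher and 0 lower, and 7 were higher without S4. Examples are TIS11, an mRNA-decay factor of iron shortage (2.26), the siderophore transporter ARN1 (1.57) and the oxidase FET3 (0.997). IZH4, a membrane protein gene of zinc homeostasis, had 20.9 and 13.1 CPM in Yrr1IE, against 44.8 and 65.6 CPM in Yrr1S (-1.72, SE 0.32).

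Cell wall genes were higher in 13 of 34 cases and lower in 1, with 8 higher without S6 and 7 without S3. DAN1, a mannoprotein gene of anaerobic growth, had 9 and 14 counts in Yrr1IE, against 0 and 0 counts in Yrr1S, and was at least 7.49-fold higher with 3 counts over both Yrr1S libraries as the limit. Its call was lost without S3, S4 or S6. CWP1 had 383 and 543 CPM in Yrr1IE, against 186 and 125 CPM in Yrr1S (1.58). Of 16 daughter cell genes 5 were higher, SCW11 (0.78) and DSE2 (0.75) among them, and 1, ASH1 (-0.57), was lower. The daughter cell count was 3 higher without S4, and ASH1 was not called without S3 or S5.

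Of 135 ribosomal protein genes, 30 were lower and 1, RPS9A (0.98), was higher, with a median of -0.32, and 125 of the 135 had a negative fold change. Summed over the list they held 151940 and 160280 CPM in Yrr1IE, against 182610 and 208680 CPM in Yrr1S. The called members lay between -0.37 and -0.65, as RPL3 with 4869 and 5551 CPM in Yrr1IE, against 6692 and 8123 CPM in Yrr1S (-0.51). Without S5 or without S4, 0 were called lower, and without S6, 14 were. Of 118 ribosome assembly genes and 55 mitochondrial ribosomal protein genes, 0 were called by edgeR or by DESeq2, while 9 and 1 had an unadjusted p under 0.05. Of 36 translation factor genes, 3 were lower and 1 was higher, and 0 were lower without S4 or S5 and 1 without S3 or S6. Among 18 cyclin and 11 histone genes 0 were called by either tool, while 5 and 4 had an unadjusted p under 0.05. Of these 4 lists, each had 1 or 2 genes called under some alternative. At an unadjusted p under 0.05, 1423 of all 5766 genes passed, against 674 after adjustment.

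Genes of the DNA damage response gave 1 higher call among 29 (3.45%, against 7.28% of all genes), HUG1, an inhibitor of ribonucleotide reductase. It had 29 and 59 counts in Yrr1IE, against 6 and 16 counts in Yrr1S (1.91, SE 0.43, edgeR adjusted p = 0.00232), and the call was lost without S3 or S6. Proteasome genes gave 3 lower calls among 35, the largest PRE6 (-0.75), and 0 without S3 or S6 and 1 without S5. Of 34 sterol and hypoxic genes, 3 were higher and 5 lower, with the heme gene HEM13 at -1.40, and 0 were higher and 3 lower without S5, or 1 higher and 5 lower without S3.

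The cells carried the marks of the MATa type. The 8 a-specific markers summed to 4718 and 3935 CPM (of unscaled totals) in Yrr1IE, against 3578 and 2842 in Yrr1S, and none of the 8 was at 0 in any of these libraries. The 4 alpha-specific markers summed to 86.3 and 85.9 in Yrr1IE, against 65.5 and 61.9 in Yrr1S, and most of that was SAG1. The pheromone gene MF(ALPHA)1 had 0 and 3 counts in Yrr1IE, against 0 and 0 counts in Yrr1S. The 6 sporulation markers summed to 83.2 and 69.3 in Yrr1IE, against 54.3 and 47.8 in Yrr1S.

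Some mating genes were higher in Yrr1IE. AGA2, the adhesion subunit of a-agglutinin, had 565 and 422 CPM in Yrr1IE, against 98.2 and 96.4 CPM in Yrr1S (2.34, SE 0.16, edgeR adjusted p = 2.61e-12), and ASG7 (2.002) and the pheromone gene MFA1 (1.10) were higher as well, 3 of 8 in all and 5 of 8 when only the 4 libraries compared were fitted. Of 15 genes of the haploid pathway 4 were higher and 0 lower, among them AGA1 (1.45) and PRM1 (1.11), and 2 were higher without S5. FIG1, a mating-induced membrane protein, had 71 and 16 counts in Yrr1IE, against 0 and 4 counts in Yrr1S (4.34), and its call was lost without S5 (2.79). STE3, the a-factor receptor gene of alpha cells, had 19 and 31 counts in Yrr1IE, against 5 and 6 counts in Yrr1S (2.08), and its call was lost without S4 or S6. The part of a few cells of another type in these low levels was not tested.

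The same allele pair in the other media shares no library with the YPD comparison, although the 4NQO libraries came from divisions of the YPD cultures. In 4NQO 260 genes were called (4.51%), and 100 of the YPD calls were called in the same direction there (14.8% of the YPD list and 38.5% of the 4NQO list), 72 higher and 28 lower, while 32 were called in the opposite direction. In glycerol 2785 genes were called (48.3%), and 321 went the same way as in YPD (47.6% of the YPD list and 11.5% of the glycerol list) and 127 the opposite way. The difference between media was tested as a contrast of contrasts: 292 genes (5.06%) differed between 4NQO and YPD and 1810 (31.4%) between glycerol and YPD. The glycerol cultures were also washed and grown for longer, so medium and growth time cannot be told apart in that contrast. Of the 674 YPD calls, 225 differed in 4NQO, 224 of them in the direction of a smaller or opposite effect than in YPD. In glycerol 381 differed, of which 294 went in that direction and the rest moved farther from 0. Each such contrast shares the YPD libraries with the calls, so such a direction is favoured by the way the genes were chosen.

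The sulfate assimilation list had a median of 0.78 in 4NQO (6 of 12 higher) and of 0.65 in glycerol (7 of 12 higher), beside 3.14 in YPD. Not every member was above 0: MET3 was at -0.10 in glycerol and SUL1 at -0.08 in 4NQO. MET17 was at 1.01 in 4NQO and 1.72 in glycerol. The ADE list had medians of -0.16 in 4NQO (2 of 13 lower) and 0.06 in glycerol (1 of 13 lower, 3 higher), beside -1.62 in YPD. Chaperones had medians of 0.09 in 4NQO (1 higher, 0 lower of 35) and -0.50 in glycerol (5 higher, 20 lower). General stress genes had a median of -0.40 in 4NQO, with 0 higher and 12 lower of 32, and 0.31 in glycerol. Arginine and lysine genes had medians of 0.42 in 4NQO and 0.50 in glycerol, beside 0.82 in YPD.

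**Figure D5:**
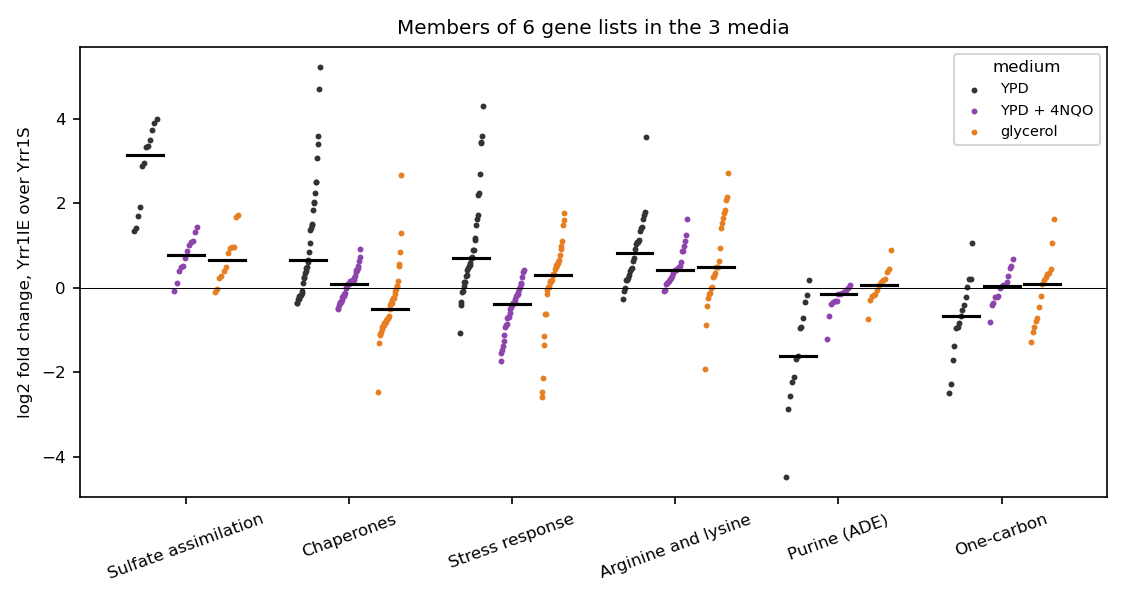
Log2 fold change of Yrr1IE over Yrr1S for every tested member of 6 gene lists in YPD, YPD with 4NQO and glycerol (points, with the list median as a black bar). Sulfate assimilation and the ADE genes lie farthest from 0 in YPD, with medians of 3.14 and -1.62, and the stress list has a median below 0 in 4NQO.

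Among single genes, HSP26 was at 5.22 in YPD, -0.48 in 4NQO and -0.66 in glycerol, and ADE17 at -4.48, -1.22 and -0.18. The differences of both media from YPD passed the test for HSP26, SSA4, STR3, HSP12, MET17, ADE17, ADE2, ADE1 and MTD1. TDH1 was at 0.17 in 4NQO but at 3.92 in glycerol, which did not differ detectably from YPD (difference -0.41, SE 0.23, edgeR adjusted p = 0.176). PHO89 was at -2.43 in 4NQO, close to its YPD value (difference 0.12, SE 0.32, adjusted p = 0.919), and at -5.50 in glycerol.

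The YJM789 allele was also grown in YPD, and its values stand beside these with the caution that each comparison shares libraries with the one above. The sulfate assimilation list had a median of 2.89 for Yrr1IE over Yrr1Y and of 0.17 for Yrr1Y over Yrr1S. For the ADE list the medians were -1.70 and 0.14, for chaperones 0.71 and 0.03, and for stress genes 0.35 and 0.38. MET17 was at 3.89 for Yrr1IE over Yrr1Y and 0.11 for Yrr1Y over Yrr1S, and ADE17 at -4.89 and 0.41. HSP26 was at 4.32 and 0.90, and TDH1 at 3.31 and 1.01.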

How the data were processed

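RNA-Seq was made from S96 yeast with YRR1 deleted and carrying a plasmid allele, 9 conditions with 2 libraries each. Libraries were unstranded, so reads of overlapping genes on opposite strands cannot be told apart. The authors set aside ribosomal and transfer RNA reads, mapped what remained with TopHat 2.0.12 on S288c and made gene counts with Rsubread on the R64-1-1 annotation. The deposited count table holds whole-number counts for 6713 loci, not normalized. The deposited FPKM values were used only to set levels of genes side by side. The authors' table of tests (fold changes, p-values) was not used. In several libraries the total is larger than the stated number of read pairs, so counts are not all separate molecules, and limits drawn from 3 counts cover counting error only.

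In R 4.3.3, edgeR 4.0.16 (filterByExpr, TMM, glmQLFit, glmQLFTest, two-sided) was fitted to all 18 libraries with 1 coefficient per condition, 5766 loci kept, common dispersion 0.0122. With 2 libraries per condition the spread is borrowed from all conditions. CPM uses TMM-scaled totals, except for cell type markers, where totals are unscaled. Replicate libraries differed by more than sampling noise in every condition. Alternatives were DESeq2 1.42.0, its size factors, other filters, fewer libraries and leaving out each library. The fit was also run on counts simulated from its own model without culture effects, which checks the computation and not the spread between cultures. Genes named are the 15 largest differences in each direction among called genes with at least 20 CPM and no overlap, members of 40 gene lists, YRR1 and SNF1. The comparison, lists and tests were chosen with earlier results of these data known. Motifs were searched on both strands of the 300 bases around each start codon, for 5604 genes whose coordinates matched the RefSeq R64 annotation.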

Additional observations from a re-analysis of the deposited data

Results flagged for a closer look

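The Yrr1IE over Yrr1S difference was compared between media for the 6 named genes with the highest and the 6 with the lowest log2 fold change in YPD. It was taken as the value in the other medium minus that in YPD (edgeR, adjusted over all genes tested). The allele and the missing SNF1 transcript cannot be told apart in it, nor can glycerol and its longer growth. The genes below are those whose difference passed the test. Since they were chosen for extreme values in YPD, a difference toward 0 is favoured by the choice. HSP26 differed by -5.695 in 4NQO and -5.882 in glycerol, where its fold changes were -0.48 and -0.66. SSA4 differed by -4.423 in 4NQO and by -4.127 in glycerol. STR3 differed by -3.694 in 4NQO and by -4.166 in glycerol. HSP12 differed by -5.585 in 4NQO and by -3.769 in glycerol. MET17 differed by -2.983 in 4NQO and by -2.279 in glycerol. TDH1 differed by -4.151 in 4NQO alone.

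Among genes that were lower in Yrr1IE in YPD, ADE17 differed by 3.259 in 4NQO and 4.303 in glycerol. For ADE2 the differences were 2.202 in 4NQO and 2.67 in glycerol. For ADE1 the differences were 2.201 in 4NQO and 2.28 in glycerol. For MTD1 the differences were 1.673 in 4NQO and 1.71 in glycerol. PHO89 moved farther from 0 in glycerol, by -2.955. SNF1, at 0 to 2 counts in every Yrr1IE library, gave no difference between media that passed the test (adjusted p = 0.289 for 4NQO and 0.298 for glycerol). With so few counts the SE was 1.79 for 4NQO and 1.91 for glycerol. The test therefore cannot decide whether the SNF1 gap differs between media.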

How the results depend on the processing

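Of 674 genes called in YPD, the count was 667 with DESeq2's size factors, 684 with no filter, 633 with a mean of at least 20 CPM, 730 with only the 4 libraries compared, 752 with only the 6 YPD libraries and 631 with DESeq2. Leaving out each library in turn gave 375 to 488 genes, 266 to 319 higher and 109 to 180 lower, each lowest without S5, where a single Yrr1IE library remains and is assumed to vary like the others. The 30 genes with the largest differences and YRR1 kept their sign and call in 186 repeats under other settings and in 124 that left out a library. Of the list counts, 32 moved by over 1.5 times and 448 did not under the other settings, against 69 and 251 when a library was left out. The balance of higher and lower calls turned for glucose-repressed genes (7 and 3, but 2 and 4 without S3) for glucose repression factors (2 and 3, but 2 and 1 without S4), for ribosomal proteins (1 and 30, but 1 and 0 without S4 or S5) and for translation factors (1 and 3, but 1 and 0 without S4). No paired analysis was possible because the labels do not tie the numbers of these libraries to cultures, and no number is shared by both alleles. Genes with few counts, such as DAN1 and FIG1, are the least certain at this depth.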
